A study of Mus musculus with 4 samples.

Results

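Cyclic nucleotide phosphodiesterases hydrolyse the second messengers cAMP and cGMP. In the heart, cAMP made after beta-adrenergic stimulation activates protein kinase A, which phosphorylates calcium-handling and myofilament proteins, while cGMP activates protein kinase G. Different phosphodiesterases sit at different places in the cell and so set how far and how long each messenger acts. The 8 genes described here, of 32291 features in the matrices, were Pde1c, Pde3a, Pde4a, Pde4b, Pde4d, Pde5a, Pde7a and Pde8a. They were taken by gene symbol, were present in all 4 matrices, and had been picked with their levels in cardiomyocyte nuclei in view. For that reason their cardiomyocyte differences between YAP5SA and control are given as a description, with no test.

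The data are single-nucleus RNA counts from whole hearts of wild-type mice at postnatal day 12, in 4 libraries with 1 library per group. Pups had received saline (the control) or AAV9-YAP5SA at postnatal day 7, and the maternal diet was chow or a high-fat diet (HFD) for 5 days. YAP5SA is an active form of the Hippo pathway co-activator YAP, driven here by the cardiac troponin T promoter, which is active in cardiomyocytes. The groups are called saline-chow, YAP5SA-chow, saline-HFD and YAP5SA-HFD, and values listed for all of them follow that order. The control was saline, so the virus and its cargo cannot be told apart, and how many hearts each library pooled is not stated in the labels. Groups follow the sample titles. The treatment labels of YAP5SA-chow and saline-HFD name the opposite diet, and if those labels hold, diet and vector changed together in every YAP5SA comparison.

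After filtering, 32143 nuclei remained, with 43408232 to 61191456 UMIs (unique molecular identifiers, counts of single RNA molecules) per deposited matrix. Clusters were named from marker genes, and 16888 nuclei in 10 of 27 clusters were cardiomyocyte-like (3624, 4937, 3160 and 5167). All 14 cardiomyocyte markers were detected in these nuclei in every library, at 33158 to 54771 summed CPM (UMIs per 1e6 UMIs of the class), with both YAP5SA libraries below both saline libraries. The YAP target Ccn2 stood at 36.2, 362, 41.6 and 165 CPM there. One cardiomyocyte-like cluster, led by Cemip, held 1698 nuclei, all of them from the YAP5SA libraries, and carried 8 of the 14 markers at the level required. Clusters 10 and 22 (481 and 373 nuclei) also carried shares of 0.67 and 0.83 of the atrial cardiomyocyte markers. They were kept in the cardiomyocyte-like class. YAP5SA-chow was the only library with abundant Y-linked RNA (Ddx3y 4760 UMIs against 1 to 17) and with little Xist (298 UMIs against 106671 to 154625), so sex differed along with the vector in the chow pair and along with diet between the YAP5SA libraries. Library pairs shared 11 to 34 barcodes.

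Promoter windows of 300 bases were available from RefSeq (GRCm38.p6, the build of mm10) for 6 of the 8 genes, with 13 windows in all. The windows of Pde4d and Pde4a are shown because these genes had large differences between YAP5SA and control in cardiomyocyte-like nuclei. The Pde4d window lies on the plus strand at chr13:108653927-108654226, inside the gene's annotated span (chromosome 13, 108449948 to 109953461, GENCODE vM21). The first Pde4a window lies on the plus strand at chr9:21165464-21165763, at the start of the gene (chromosome 9, 21165714 to 21213248). Capitals mark GGAATG, the core of the element bound by TEAD factors, the DNA-binding partners of YAP.
Pde4d: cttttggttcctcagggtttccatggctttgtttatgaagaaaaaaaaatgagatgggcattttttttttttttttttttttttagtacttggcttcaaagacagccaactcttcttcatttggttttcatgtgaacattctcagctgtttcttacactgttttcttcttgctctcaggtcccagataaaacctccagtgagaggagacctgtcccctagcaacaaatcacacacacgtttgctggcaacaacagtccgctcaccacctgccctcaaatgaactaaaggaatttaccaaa
Pde4a: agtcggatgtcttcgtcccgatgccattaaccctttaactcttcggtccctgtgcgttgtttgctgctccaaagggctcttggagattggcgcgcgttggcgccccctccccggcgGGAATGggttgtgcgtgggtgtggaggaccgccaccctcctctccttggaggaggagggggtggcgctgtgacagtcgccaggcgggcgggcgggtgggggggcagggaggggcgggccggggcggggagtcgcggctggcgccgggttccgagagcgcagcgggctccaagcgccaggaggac

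GGAATG, searched on both strands, occurred in 1 of the 13 windows, the Pde4a window above, and in 14.7% of 32851 promoter windows of the same table. The other Pde4a windows, which are not shown, held none. Pde1c also had large differences between YAP5SA and control, and its 3 windows, not shown, held none either. The cAMP response element TGACGTCA occurred in 0 of the 13 and in 1.79% of all windows. Its core TGACG, which is part of the longer element, occurred in 3 of the 13 (1 each of Pde4a, Pde4b and Pde8a) and in 20.8% of all windows. The Pde4d window held none of these.

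In cardiomyocyte-like nuclei, Pde4d and Pde4b, which hydrolyse cAMP, had the highest CPM of the 8 genes in saline hearts, also per kilobase of exon. Per kilobase of gene span, which applies if intronic reads were counted, the order in saline-chow was Pde4b (5.15), Pde3a (4.08) and Pde4d (2.65 CPM per kilobase). Pde4d stood at 3984, 753, 4722 and 1363 CPM, or 332, 62.7, 393 and 114 CPM per kilobase of exon. Both YAP5SA libraries were well below both saline libraries. The log2 fold of YAP5SA over saline was −2.40 on chow and −1.79 on HFD. Pde4b stood at 2678, 2057, 2933 and 2188 CPM, so the YAP5SA libraries were again the lower ones, but by a log2 fold of only −0.38 and −0.42. In YAP5SA hearts Pde4b therefore had a higher level than Pde4d, also per kilobase of exon (195 against 62.7 on chow and 207 against 114 on HFD). Pde4a, the third cAMP-specific gene of this subfamily here, was far lower, at 64.6, 23.4, 68.7 and 28.1 CPM, with log2 folds of −1.46 and −1.29.

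Pde1c, activated by calcium and calmodulin, and Pde3a, inhibited by cGMP, hydrolyse both messengers. Pde1c stood at 1197, 347, 962 and 473 CPM, with log2 folds of −1.79 on chow and −1.02 on HFD. Pde3a stood at 1054, 501, 1019 and 579 CPM, with log2 folds of −1.07 and −0.82. For both genes the YAP5SA levels did not overlap the saline levels.

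The remaining genes were low in cardiomyocyte-like nuclei. Pde8a, a cAMP-specific enzyme of high affinity, stood at 32.1, 21.0, 31.6 and 20.9 CPM, lower in both YAP5SA libraries, with log2 folds of −0.61 and −0.60. Pde7a, also cAMP-specific, stood at 122, 102, 108 and 148 CPM, so that the groups overlapped, with log2 folds of −0.26 on chow and 0.46 on HFD. An annotated antisense gene in the matrices overlaps each of Pde3a, Pde5a and Pde7a, and how the counting used strand is not stated, so those values are less certain. Pde5a, which is specific for cGMP, stood at 4.28, 4.23, 4.81 and 6.47 CPM from 101 to 187 UMIs.

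**Figure D1:**
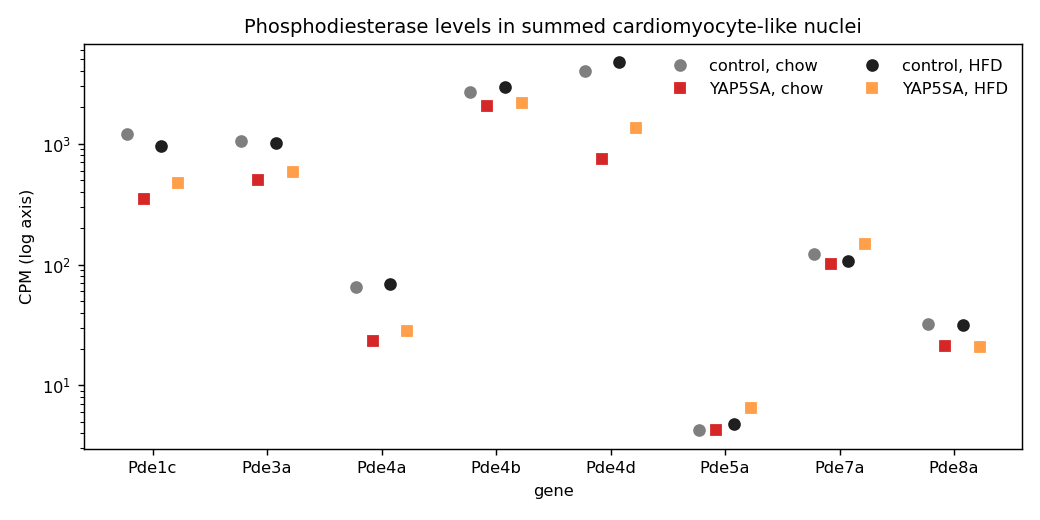
CPM on a log axis for each gene in summed cardiomyocyte-like nuclei, 1 point per library (circles saline, squares YAP5SA). The squares lie below the circles for Pde1c, Pde3a, Pde4a, Pde4b, Pde4d and Pde8a, while for Pde7a 1 square lies below both circles and 1 above.

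Counting the 7 genes with a mean of at least 10 CPM, 5 were at least 1.5-fold lower with YAP5SA on chow and 5 on HFD, and none was that much higher. Over all 8520 genes at that level, 18.7% were at least 1.5-fold lower on chow and 9.78% on HFD, and 16.7% and 20.8% were higher. The 5 genes were Pde1c, Pde3a, Pde4a, Pde4d and Pde8a in both pairs. Just outside the 1.5-fold limit stood Pde4b (−0.38 and −0.42) and just inside it Pde8a (−0.61 and −0.60). The members' median log2 fold was −1.07 on chow and −0.82 on HFD, against −0.05 and 0.11 over all genes compared. The genes were chosen on this contrast, so these counts describe the choice. Without the cluster led by Cemip, Pde4d stood at −2.04 and −1.56 and Pde1c at −1.41 and −0.79.

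The share of nuclei with at least 1 UMI showed how the levels were spread over nuclei. Nuclei were thinned to 2000 UMIs each, which left out 105 to 207 shallower nuclei per library. Of cardiomyocyte-like nuclei, 96.3%, 54.7%, 97.4% and 69.8% then held a Pde4d UMI (98.3%, 73.7%, 98.0% and 82.1% before thinning). For Pde1c the thinned shares were 82.0%, 35.7%, 74.0% and 44.4%. Pde3a was found in 78.6%, 49.1%, 76.9% and 54.2% of nuclei. Pde4b stayed near its ceiling, at 96.8%, 91.5%, 97.3% and 91.4%. In these genes, which were chosen on this contrast, both YAP5SA shares were below both saline shares. How often that held over all genes was not counted. Macrophage-like nuclei at the same depth held a Ttn UMI in 23.2% to 58.8% of nuclei, a Pde1c UMI in 0% to 11.2%, a Pde3a UMI in 3.81% to 20% and a Pde4b UMI in 11.1% to 46.6%. They held a Pde4d UMI in 50% to 54.9%, about the share of YAP5SA-chow cardiomyocyte-like nuclei; the median depth before thinning was 2613 to 3415 UMIs there and 4862 to 5856 in cardiomyocyte-like nuclei. Pde5a was found in 0.655% to 1.16% of cardiomyocyte-like nuclei, against 19.6% to 27.2% of fibroblast-like nuclei.

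Within cardiomyocyte-like clusters the genes did not behave alike. Only cluster 4 had at least 100 nuclei in every library (2450, 501, 1672 and 147, 4770 in all). It held 67.6%, 10.1%, 52.9% and 2.84% of the cardiomyocyte-like nuclei, so a small part of the YAP5SA nuclei. There Pde4d stood at 3660, 1642, 4246 and 1580 CPM, with log2 folds of −1.16 and −1.43. Pde1c was lower by less, with log2 folds of −0.54 and −0.68, and Pde3a by −0.28 and −0.16. Pde4b stood at 2713, 2861, 2980 and 2759 CPM in that cluster, where the groups overlapped. Of the 5 genes, 1 on chow (Pde4d) and 3 on HFD (Pde1c, Pde4a and Pde4d) were at least 1.5-fold lower in cluster 4. Clusters with at least 20 nuclei in both libraries of a pair numbered 6 on chow and 7 on HFD, and Pde4d was lower with YAP5SA, with a counting interval below 0, in all of them. Pde3a was also lower in all of them, while Pde4b was lower in 2 of 6 and 4 of 7. Pde1c was lower in 6 of 6 and 5 of 7. Its counting interval lay below 0 in 5 of 6 and 4 of 7, and above 0 in 1 of 7 on HFD. The counting interval of Pde4b lay below 0 in 1 of 6 and 4 of 7. It lay above 0, so higher with YAP5SA, in 4 of 6 on chow and 2 of 7 on HFD. The YAP5SA-only cluster led by Cemip had the lowest Pde4d level of the 10 clusters (153 CPM), and cluster 9, almost wholly YAP5SA, had 531 CPM. The mix of clusters thus moved with the arm, and its part in the levels of the whole class was not tested beyond these values.

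**Figure D2:**
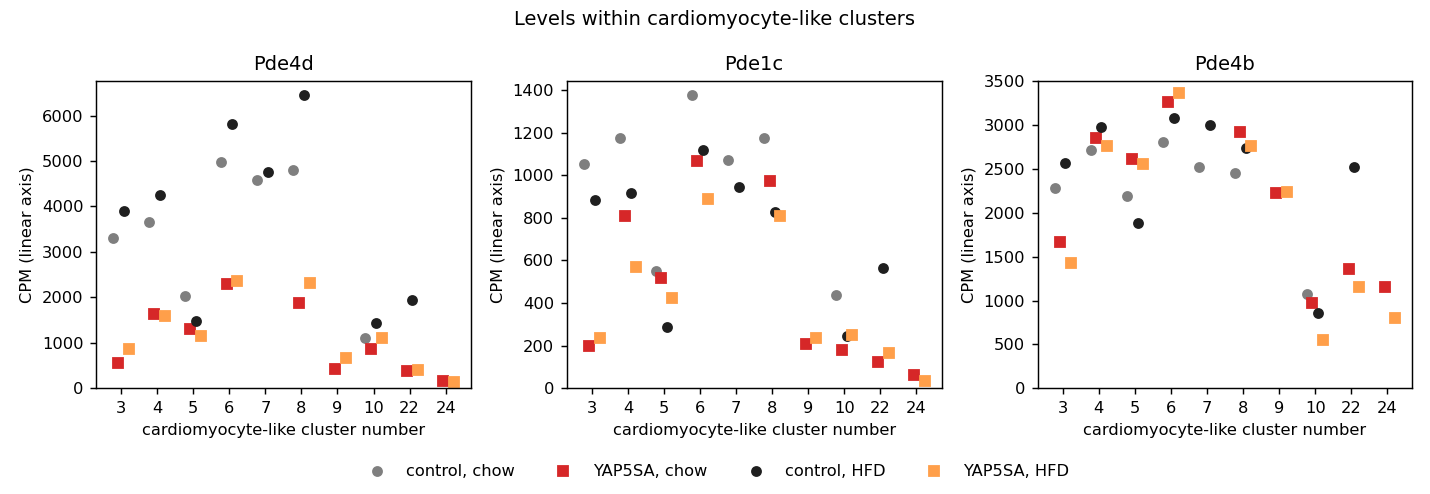
CPM of Pde4d, Pde1c and Pde4b in each cardiomyocyte-like cluster on linear axes, 1 point per library with at least 20 nuclei in the cluster. Pde4d squares (YAP5SA) lie below the circles (saline) of the same diet wherever both are drawn. Pde4b squares lie below the circles of the same diet in cluster 3 and above them in clusters 5, 6 and 8.

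Levels were compared over 9 cell classes, each of at least 20 nuclei per library, and each gene had its own pattern. Pde4b and Pde1c had their highest means in cardiomyocyte-like nuclei (2464 and 745 CPM over the 4 libraries). For Pde4b the range lay above that of every other class, while for Pde1c (347 to 1197 CPM) it overlapped that of lymphatic endothelial-like nuclei (22.9 to 380 CPM). Pde4d also had its highest mean there (2705 CPM), but its range of 753 to 4722 CPM overlapped that of endocardial-like nuclei (1310 to 1980 CPM). Pde3a was highest in smooth muscle-like nuclei, at 2983 to 3722 CPM, above endocardial-like (1385 to 2927 CPM) and pericyte-like nuclei (1592 to 2239 CPM), which overlapped. Pde5a was found mainly in smooth muscle-like, pericyte-like and fibroblast-like nuclei, with means of 361, 228 and 166 CPM, and was lowest in cardiomyocyte-like nuclei (4.95 CPM). Pde8a was highest in lymphatic endothelial-like (375 CPM) and endothelial-like nuclei (278 CPM), whose ranges overlapped. Pde7a differed least, with class means of 81.3 to 140 CPM. Pde4a had class means of up to 63.2 CPM and no UMI in lymphatic endothelial-like nuclei, where 3 counts would have given 12.3 to 25.7 CPM.

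**Figure D3:**
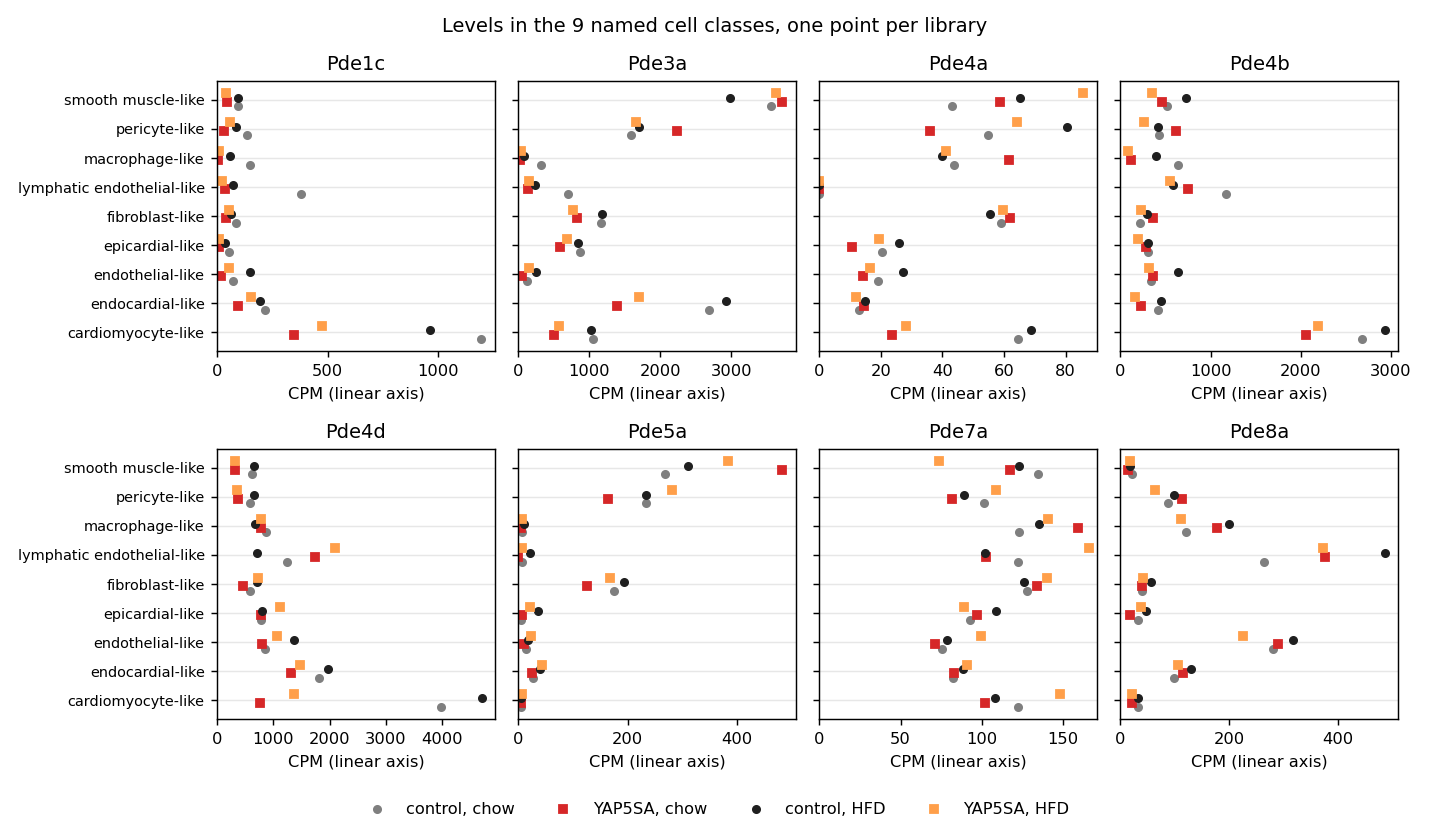
CPM of each gene in 9 cell classes on linear axes that differ between panels, 1 point per library. Pde4b and Pde1c peak in cardiomyocyte-like nuclei, Pde3a and Pde5a in smooth muscle-like nuclei, and Pde8a in the lymphatic endothelial-like and endothelial-like classes.

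Cardiomyocyte RNA was present in the other classes, and it bears on the lower values. Ttn, a cardiomyocyte gene, reached 1.0% to 20.6% of its cardiomyocyte-like level there, and each of those classes held UMIs of at least 13 of the 14 cardiomyocyte markers in every library. In macrophage-like nuclei Pde1c stood at 149, 2.57, 55.5 and 9.13 CPM, while the cardiomyocyte level scaled by Ttn would give 234, 4.91, 31.9 and 7.65 CPM. The same scaling gave 50.5, 6.74, 121 and 42.1 CPM for Pde1c in endothelial-like nuclei, against 70.9, 18.5, 146 and 50.5 CPM measured. In fibroblast-like nuclei it gave 29.3, 7.83, 28.8 and 13.8 CPM against 83.6, 38.5, 63.4 and 52.2 CPM. Pde1c was lower with YAP5SA in all 7 classes compared, and the part of cardiomyocyte RNA in this was not tested.

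Fibroblast-like and endothelial-like sums were tested over all genes with edgeR's quasi-likelihood test, with the 2 YAP5SA libraries against the 2 saline libraries and Benjamini-Hochberg adjustment over all genes. In fibroblast-like nuclei 2 of the 8 genes fell and none rose, where 5.80% of 15375 genes fell and 7.14% rose. Pde3a fell, from 1162 and 1173 CPM to 825 and 767 CPM (log2 fold −0.67, SE 0.136, adjusted p = 0.0124). Both YAP5SA libraries were below both saline libraries. Without saline-HFD the adjusted p of Pde3a was 0.122. Pde1c fell, from 83.6 and 63.4 CPM to 38.5 and 52.2 CPM (log2 fold −0.81, SE 0.194, adjusted p = 0.0263). Without saline-chow its adjusted p was 0.0910, and with the stricter nucleus filter it was 0.0840. For Pde1c the cardiomyocyte level scaled by Ttn came to 35.0%, 20.4%, 45.5% and 26.4% of these CPM. The part of cardiomyocyte RNA in the Pde1c fall was not tested. Pde5a stood at 174, 125, 194 and 169 CPM, below saline in each diet, and did not pass (edgeR adjusted p = 0.0969). Pde4d stood at 578, 463, 711 and 721 CPM in fibroblast-like nuclei, so the difference seen in cardiomyocyte-like nuclei was not called there (edgeR log2 fold −0.25, adjusted p = 0.470). The difference between the classes was not tested. The fibroblast-like class was made of different clusters in the 2 arms: cluster 1 held 844 and 1625 nuclei of the saline libraries and 124 and 264 of the YAP5SA libraries, and cluster 15 held 63 and 101 against 659 and 1171.

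In endothelial-like nuclei none of the 8 genes, and 0 of 10966 genes, passed the edgeR test, with 1329 genes at an unadjusted p under 0.05 and 62 genes passing with DESeq2. Of the 8 genes, 1 was at an unadjusted p under 0.05. Pde1c passed with DESeq2 (log2 fold −1.74, adjusted p = 0.0293). Of the 10 alternatives, which include those leaving out 1 library, Pde1c passed in 4, Pde4b in 2 and Pde3a in 1. Pde1c and Pde3a were at a lower level with YAP5SA. Pde4b stood at 342, 363, 636 and 317 CPM, lower with YAP5SA on HFD only. The cardiomyocyte level scaled by Ttn would give 113, 40.0, 368 and 195 CPM for Pde4b. For Pde3a it would give 44.5, 9.72, 128 and 51.5 CPM, against 118, 55.6, 245 and 151 CPM measured. The part of cardiomyocyte RNA in these endothelial-like values was not tested. Pde8a, which had one of its highest levels there, stood at 280, 290, 317 and 225 CPM. Pde4d stood at 849, 795, 1374 and 1067 CPM.

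**Figure D4:**
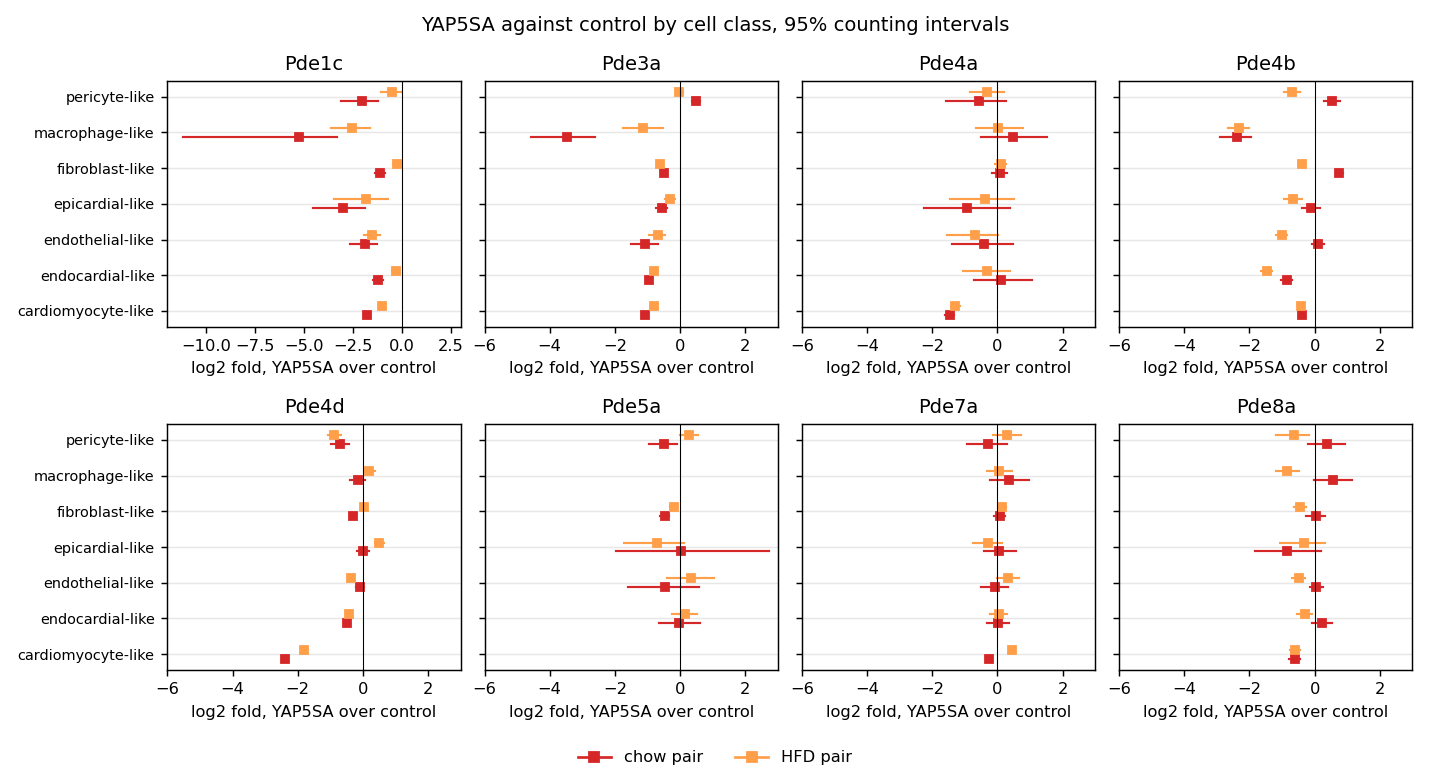
Log2 fold of YAP5SA over saline for each gene in 7 cell classes, on chow (red) and HFD (orange), with exact 95% counting intervals, for genes with a mean of at least 10 CPM; the Pde1c axis is longer. Pde4d lies at −2.40 and −1.79 in cardiomyocyte-like nuclei and between −0.87 and 0.50 in the other classes drawn, and Pde1c lies below 0 in each class.

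Of the 16 other cyclic nucleotide phosphodiesterase genes, 15 were tested in cardiomyocyte-like sums and 1 fell, against 3.76% of all genes. That gene was Pde4c, the fourth cAMP-specific gene of the Pde4 subfamily, at 2.84 and 3.001 CPM in the saline libraries and 0.940 and 0.657 CPM in the YAP5SA libraries (edgeR log2 fold −1.92, SE 0.419, adjusted p = 0.0382). Without the cluster led by Cemip its adjusted p was 0.0948. Pde7b, the most abundant of the 16, stood at 541, 536, 757 and 694 CPM and did not pass. Pde6a, known from photoreceptors, stood at 29.5 to 44.2 CPM, and Pde6d at 29.4 to 44.9 CPM. Pde3b stood at 10.4 to 23.1 CPM. Pde10a stood at 47.9 CPM in saline-HFD and at 4.70 to 11.6 CPM elsewhere. Pde1a, Pde2a, Pde6b, Pde6c, Pde6g, Pde6h, Pde8b, Pde9a and Pde11a were each below 10 CPM in every library, and Pde1b was not tested.

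In fibroblast-like nuclei 3 of the 13 other genes tested rose and 1 fell, where 7.14% of 15375 genes rose and 5.80% fell. Pde7b, a cAMP-specific enzyme, fell from 603 and 771 CPM to 238 and 333 CPM (edgeR log2 fold −1.39, SE 0.186, adjusted p = 0.00215). Pde9a, specific for cGMP, rose from 122 and 94.5 CPM to 182 and 203 CPM (edgeR log2 fold 0.71, adjusted p = 0.0172). Pde8b rose from 4.55 and 5.25 CPM to 12.8 and 13.8 CPM, and Pde2a, stimulated by cGMP, from 2.90 and 2.53 CPM to 6.88 and 8.85 CPM (edgeR adjusted p = 0.0126 and 0.0253). Of 10 alternatives, Pde7b passed in 10, Pde9a in 9, Pde8b in 7 and Pde2a in 5. Without saline-HFD the edgeR adjusted p was 0.205 for Pde9a, 0.0697 for Pde8b and 0.199 for Pde2a. With clustering at resolution 2 the log2 fold was 0.02 for Pde8b and −0.16 for Pde2a.

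Of the pathway lists in fibroblast-like nuclei, 7 of 10 genes of cGMP synthesis and action fell and none rose, beside 5.80% and 7.14% of all genes. For cAMP synthesis 1 of 12 rose and 0 fell, for cAMP effectors 1 of 13 rose and 1 fell, and for anchoring proteins 1 of 11 rose and 2 fell. Of the protein kinase A substrates 3 of 6 fell, of the CREB axis 1 of 9 and of the efflux transporters 1 of 2, and none rose. The substrate list includes Ryr2, Pln, Tnni3 and Mybpc3, which are also cardiomyocyte markers. The cardiomyocyte markers summed to 1999, 1188, 2247 and 1406 CPM in fibroblast-like nuclei. The part of cardiomyocyte RNA in the substrate falls was not tested. Among the cGMP genes, picked after their values were seen, Prkg1, which encodes protein kinase G, fell from 1091 and 1102 CPM to 636 and 775 CPM (edgeR log2 fold −0.76, adjusted p = 0.00868), and without saline-HFD its adjusted p was 0.0790.

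The rest of the pathway in cardiomyocyte-like nuclei was described by 7 lists of genes for making, sensing, anchoring and exporting cyclic nucleotides. Of 66 genes tested, 3 rose and 8 fell, against 7.19% and 3.76% of all genes. Among genes of cAMP synthesis (14 tested, 2 rose, 2 fell), Adcy5, a main cardiac adenylyl cyclase, fell from 218 and 164 CPM to 107 and 101 CPM (edgeR log2 fold −0.93, adjusted p = 0.0330). Adcy9 fell as well (−0.76, edgeR adjusted p = 0.0365). Adcy1, stimulated by calcium and calmodulin, rose from 1.44 and 3.95 CPM to 29.1 and 18.8 CPM (3.10, edgeR adjusted p = 0.0171), and Gnai1, an inhibitory G protein subunit, rose (1.15, edgeR adjusted p = 0.0292).

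Among 8 protein kinase A substrates tested, 4 fell: Mybpc3 and Tnni3, which encode myofilament proteins and are also among the cardiomyocyte markers used to name clusters, the small heat shock protein gene Hspb6, and Ppp1r1b, at under 1 CPM. Mybpc3 fell from 529 and 442 CPM to 234 and 220 CPM (edgeR log2 fold −1.15, adjusted p = 0.0138). Of 13 cAMP effector genes and 9 CREB axis genes tested, 0 passed in edgeR, with 2 and 3 at an unadjusted p under 0.05, and 2 and 1 passed in DESeq2. Of the other lists, the anchoring protein gene Akap1 fell (1 of 11 tested), the natriuretic peptide receptor gene Npr3 rose (1 of 9 in the cGMP list) and the efflux transporter gene Abcc5 fell (1 of 2). Without the cluster led by Cemip, 2 of these 11 calls passed (Adcy1 and Mybpc3). Leaving out saline-chow, saline-HFD, YAP5SA-chow or YAP5SA-HFD, 2, 4, 6 and 9 passed, and 4 passed at resolution 2 and 9 with a diet term. All 11 kept their direction in each of these.

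In the diet pairs, the largest difference between saline libraries was that of Pde1c (log2 fold of HFD over chow −0.31). Of the 7 genes compared, none was 1.5-fold apart between saline-HFD and saline-chow, where 4.28% of genes were higher and 3.60% lower. Between the YAP5SA libraries 1 gene, Pde4d, was at least 1.5-fold higher on HFD (1363 against 753 CPM) and none was lower, where 12.4% of genes were higher and 4.72% lower. These pairs rest on the titles' diet names and on 1 library each, and the YAP5SA pair also differed in sex.

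Gene levels over the 36 sums of 9 classes and 4 libraries were compared by Pearson's r of log2(CPM + 1), as a description, since sums of 1 library share its depth. The genes most like Pde1c were Esrrg, Ryr2 and Ank3 (r = 0.87 for each). For Pde4b they were Trim63, D830005E20Rik and Tmem38a (r = 0.88 for each), and for Pde4d Intu, Mtm1 and Phactr2 (r = 0.80, 0.76 and 0.74). Pde5a was most like Gpc6 (0.96), then 4930447N08Rik (0.93), which overlaps it on the opposite strand. Pde3a was closest to Ror1 (0.87), Prkg1 (0.85) and Cacnb4 (0.84). Pde8a was closest to Arap3 (0.91), Slfn3 (0.90) and Tspan14 (0.88). Pde4a was closest to Plekha2 (0.83), Cdip1 (0.82) and Tprkb (0.81), and Pde7a to Zdhhc13 (0.78), Pigu (0.74) and Haus8 (0.70).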

How the data were processed

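Nuclei of 4 whole-heart libraries were sequenced with 10x 3′ chemistry, and the deposited matrices hold raw UMI counts per gene and nucleus with no normalization. Per the submitters' processing notes, the authors used Cell Ranger 7.1.0 and mm10; no source says which annotation was used or whether intronic reads counted. Nuclei with under 500 genes or over 5% mitochondrial UMIs were removed, then doublets by Scrublet in scanpy 1.11.5; where its threshold marked under 0.5%, the top scores at 0.8% per 1000 nuclei were removed, which gave 4.51% to 6.93%. Counts were clustered without integration and without phosphodiesterase genes (3000 variable genes, 30 components, 15 neighbours, Leiden resolution 1, igraph 0.11.9). A cluster took the name of the type with the largest share of markers present, at 0.5 or more and at least 3 markers, a marker being present at 0.15 of its highest cluster CPM in 10 or more percent of nuclei. The 0.15 and the treatment of erythroid genes were set after seeing the data. Raw counts were summed per class and library, and CPM, folds (prior 0.5) and exact 95% intervals were computed (scipy 1.17.1). Intervals and floors cover counting error only. Arms of 2 libraries were tested with edgeR 4.0.16 (TMM, filterByExpr, adjusted p under 0.05), with DESeq2 1.42.0 as an alternative; the tests were tested on simulated data. The p-values measure the spread between these 2 libraries per arm, which may be technical. By title the 2 libraries of an arm also differed in diet, and those of YAP5SA differed in sex. That spread is therefore not one between replicates. Positions came from GENCODE vM21. Genes were named by rule: the 8 members, all other phosphodiesterases, up to 4 called genes per pathway list and the 3 genes most like each member, of which 1 is not reported here. Prkg1 in fibroblast-like nuclei was named outside this rule. The members, lists and tests were chosen with earlier results of these data known.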

Additional observations from a re-analysis of the deposited data

Results flagged for a closer look

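Several values moved in opposite directions in the 2 diets or in the 2 arms, with both counting intervals away from 0. Each direction rests on 1 library against 1 library, so none of these differences was tested, and the 2 contrasts of a gene share libraries. Every difference also uses YAP5SA-chow, the library that differed in sex from the others. Each uses the 2 libraries whose treatment labels name the opposite diet, so diet, vector and sex cannot be told apart.

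Between diets, Pde7a in cardiomyocyte-like nuclei was lower with YAP5SA on chow (log2 fold −0.26) and higher on HFD (0.46), a difference of 0.72. In fibroblast-like nuclei Pde4b was higher on chow (0.75) and lower on HFD (−0.39), a difference of −1.14. In pericyte-like nuclei Pde4b stood at 0.54 and −0.69, a difference of −1.22, and Pde5a at −0.51 and 0.27, a difference of 0.78. The pericyte-like levels of Pde4b were 424, 615, 418 and 260 CPM. The cardiomyocyte level of Pde4b scaled by Ttn would give 330, 66.2, 207 and 130 CPM there, and its part was not tested.

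Between arms, the log2 fold of HFD over chow in cardiomyocyte-like nuclei was −0.31 in saline and 0.45 in YAP5SA hearts for Pde1c, a difference of 0.76. For Pde3a it was −0.05 and 0.21, a difference of 0.26, and for Pde7a −0.18 and 0.54, a difference of 0.72. In fibroblast-like nuclei it was −0.40 and 0.44 for Pde1c, a difference of 0.84, and 0.43 and −0.71 for Pde4b, a difference of −1.14. For Pde8a it was 0.18 and −0.37 in endothelial-like nuclei, a difference of −0.54, and 0.72 and −0.68 in macrophage-like nuclei, a difference of −1.40.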

How the results depend on the processing

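Pde1c, Pde3a, Pde4a, Pde4d and Pde8a were lower with YAP5SA in cardiomyocyte-like nuclei in both diets under each of the 10 alternatives run for their log2 folds; Pde4d ranged from −2.42 to −1.16 on chow and from −2.004 to −1.43 on HFD. The count of genes at least 1.5-fold lower was 5 in each diet; using only clusters with at least 100 nuclei in every library it was 1 on chow and 3 on HFD, and at a 2-fold limit it was 3 on HFD. Genes called by edgeR in cardiomyocyte-like sums numbered 1864, against 903 at resolution 2 and 718 without the cluster led by Cemip (chosen after seeing the data), and 930 to 2505 leaving out 1 library; fewer cardiomyocyte-like nuclei of the YAP5SA libraries entered the first 2 of these. In fibroblast-like sums 1990 were called, against 3059 with no filter on low counts (more genes tested) and 773 to 2693 leaving out 1 library, the lowest without saline-HFD. In endothelial-like sums 0 were called, against 62 with DESeq2, 618 with no filter, 297 with a diet term, 55 with the stricter nucleus filter and 20 to 396 leaving out 1 library; the cause was not tested. Pde2a in fibroblast-like sums reversed at resolution 2 (log2 fold −0.16); the cause was not tested. No paired analysis was possible because the labels give no replicate numbers; with diet as a term, 1800, 2092 and 297 genes were called in cardiomyocyte-like, fibroblast-like and endothelial-like sums. Each group had 1 library, and leaving one out assumes that the lone library varies like the other arm. Low levels, such as Pde5a in cardiomyocyte-like nuclei, rested on few UMIs, so their folds are less certain.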
